A study of Homo sapiens with 8 samples.

Results

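The 9 genes described here carry fatty acids and sterols into an intestinal cell and build triglyceride into particles for export. They were taken by gene symbol from the annotation of the array's probe sets. The intracellular fatty acid binding proteins are FABP1, FABP2, FABP5 and FABP6, the uptake proteins SLC27A2, CD36 and SCARB1, and the assembly proteins DGAT1 and MTTP. Together they have 14 of the 22277 probe sets on the array and are 9 of the 11963 genes that could be named. The samples were 2 human cell lines, Caco-2, a colorectal adenocarcinoma line that takes on enterocyte features in culture, and HUG1N, a gastric cancer line that the labels also call HuG-1. For either line, 2 arrays came from control cells and 2 from cells with an shRNA, a short hairpin RNA, that targets GATA6, a GATA-family DNA-binding factor active in endoderm. The same treatment note, infection with the shRNA followed by puromycin selection, stands on all 8 samples, so what the control cells received is not given. The hairpin's sequence, the length of selection and whether cells were cloned are not given either. Nothing states that the arrays within a group are separate cultures, so the p-values rest on array-to-array spread that could be purely technical.

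In the absorptive cells of the small intestine, fatty acids cross the brush border, are bound in the cytosol by small binding proteins, are activated with coenzyme A and are rejoined to glycerol. DGAT1 adds the last fatty acid to make triglyceride. MTTP then loads triglyceride onto apolipoprotein B in the endoplasmic reticulum, and the particle leaves the cell as a chylomicron, or in liver as very low density lipoprotein. GATA factors are known regulators of several intestinal and liver-type genes of this route. Which of these genes changed when GATA6 was targeted, and whether they changed alike in a colorectal and a gastric line, are the questions addressed here.

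Values are log2 expression, as deposited, bounded below at 2.08, where 28.7 to 29.9% of each array's probe sets lay. A gene was treated as measured on an array where its log2 value exceeded 4, and was tested where that held on at least 2 arrays, which 7696 genes did. Genes with a limma adjusted p under 0.05 are called. Across the tested genes, which are not independent of each other, r was 0.995 to 0.997 within a group and 0.697 to 0.745 between the lines. The gap between 3′ and 5′ probe sets of ACTB, a measure that widens as RNA or labelling quality falls, was 1.92 ± 0.02 in Caco-2 control, 1.55 ± 0.13 in Caco-2 shRNA, 2.51 ± 0.23 in HUG1N control and 3.73 ± 0.06 in HUG1N shRNA arrays (SD, n = 2 each, log2 units). It thus moved with the shRNA in both lines, in opposite directions, and its part in the results below was not tested. All 4 epithelial markers were measured on every array. Of 8 enterocyte markers 6 were measured on both Caco-2 control arrays, and of 8 gastric markers 6 on both HUG1N control arrays, against 4 and 3 in the other line's controls. The mean of the enterocyte list was 7.36 to 7.39 on Caco-2 control and 6.73 to 6.74 on Caco-2 shRNA arrays, and 6.10 on HUG1N control and 5.97 to 6.09 on HUG1N shRNA arrays. That of the gastric list was 7.96 to 8.06 on HUG1N control and 7.34 to 7.36 on HUG1N shRNA arrays, and 4.96 to 4.97 against 3.93 to 4.03 in Caco-2. The enterocyte markers LGALS4 (14.21 against 4.34) and CDX1 (7.38 against 4.53) were higher in HUG1N than in Caco-2 control cells, the rest of that list being lower. The gastric markers TFF1 and TFF2 averaged 11.2 and 10.4 in Caco-2 control and 8.05 and 6.23 in Caco-2 shRNA cells. The part of these markers in the results was not tested. Of 6 fibroblast markers, COL1A1 was measured in every group, on 1 or 2 arrays of each, and LUM in Caco-2 shRNA arrays.

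GATA6 fell in Caco-2, to 74.9% of its control level. Its log2 values were 12.63 and 12.45 in Caco-2 control arrays and 12.23 and 12.02 in shRNA arrays, a change of -0.42 (SE 0.10, limma adjusted p = 0.0224). In HUG1N they were 12.54 and 12.45 against 12.26 and 12.22, a difference of -0.25 (SE 0.10) that was not called (limma adjusted p = 0.0879). The Caco-2 call was lost under 4 of 19 alternatives, among them without control replicate 1 (adjusted p = 0.114) and without shRNA replicate 2 (adjusted p = 0.0961), over a range of 0.00699 to 0.114.

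Of the 9 genes, 6 were measured and 3 were not. FABP1, FABP5, SLC27A2, SCARB1, DGAT1 and MTTP passed the filter, while FABP2, FABP6 and CD36 exceeded log2 4 on 0 arrays and were not tested. In Caco-2, FABP5, MTTP and DGAT1 fell with the shRNA by the limma test, 3 of 6, where 19.2% of all tested genes were called lower and 38.7% either way. In HUG1N, FABP1, FABP5, SCARB1 and DGAT1 fell and SLC27A2 rose, where 23.9% of all genes were called lower, 24.7% higher and 48.7% either way. FABP5 and DGAT1 were called lower in both lines, as were 530 of all 7696 tested genes, and the HUG1N call of FABP5 was lost under 5 of 19 alternatives. The median difference over the 6 measured genes was -0.89 in Caco-2 and -0.40 in HUG1N, beside medians of 0.00 over all tested genes. MTTP and FABP1 passed the filter largely through Caco-2, on 4 and 5 arrays in all, so these 6 genes are not a fair sample of the 9. With the HUG1N groups fitted alone, 4 genes were tested, of which 1 rose and 1 fell, and 3179 of all 7200 tested genes were called. Without HUG1N control replicate 2 the HUG1N count was 3 of 6 in place of 5.

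**Figure D1:**
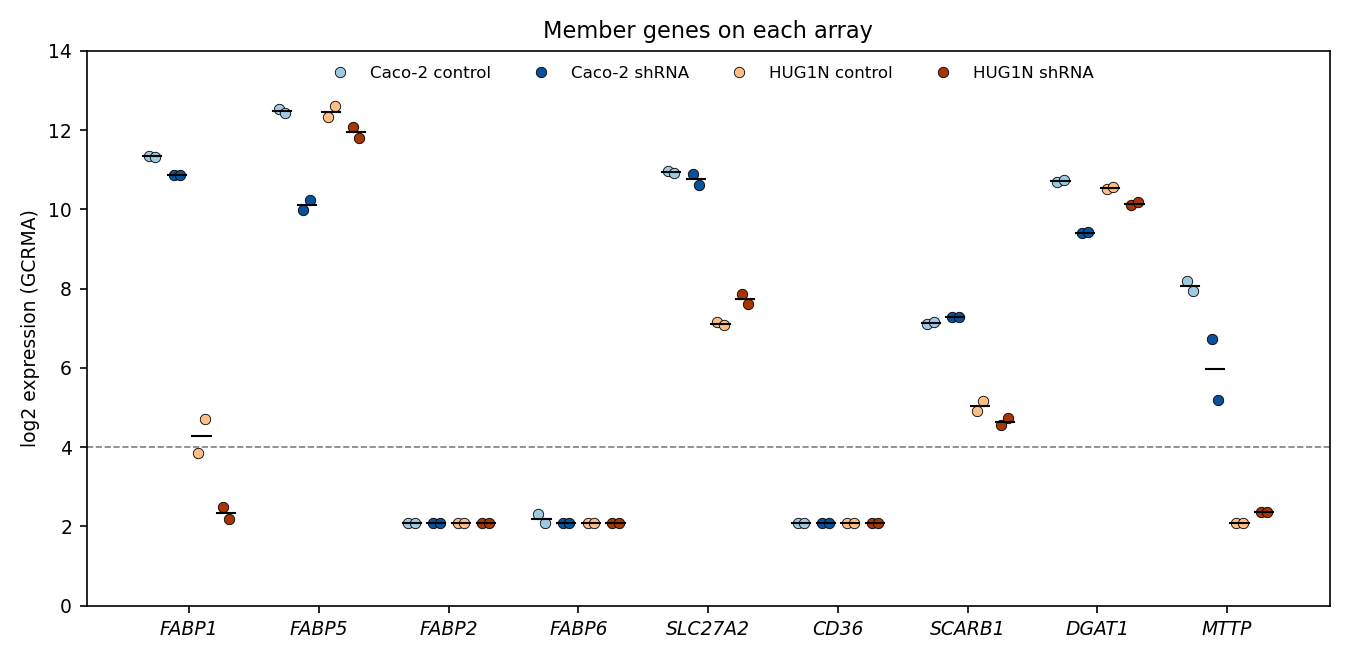
Log2 expression of the 9 genes on each of the 8 arrays, by the brightest probe set of each gene. Points are single arrays, short lines are group means (n = 2), and the dashed line marks log2 4, above which a gene was treated as measured. FABP2, FABP6 and CD36 lie near 2.08 in all groups, MTTP is above the line in Caco-2 only, and FABP5 and DGAT1 are above it in both lines.

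FABP1, the liver-type fatty acid binding protein, which is also abundant in proximal enterocytes, was measured on all Caco-2 arrays and lay close to background in HUG1N. Its probe set 205892_s_at read 11.35 and 11.32 in Caco-2 control arrays and 10.87 and 10.86 in Caco-2 shRNA arrays. In HUG1N it read 3.86 and 4.71 in control and 2.50 and 2.18 in shRNA arrays. The SDs in Caco-2 were 0.02 and 0.01. The Caco-2 difference was -0.47 (SE 0.26, 95% interval -1.11 to 0.18) and was not called (limma adjusted p = 0.215). Its SE pools all 4 groups, of which HUG1N control, near the limit of measurement, had the largest SD, 0.60. With the Caco-2 arrays fitted alone the same difference was called (adjusted p = 0.00969), and it was also called without HUG1N control replicate 1 (adjusted p = 0.0307) or 2 (adjusted p = 0.0308), over a range of 0.00969 to 0.444 in 19 alternatives.

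In HUG1N the FABP1 change was -1.95 (SE 0.26, limma adjusted p = 0.00177), from a control group with 1 of 2 arrays over log2 4 to an shRNA group with 0. Against log2 4 this is a fall of at least 1.22-fold, with no allowance for the spread of the control arrays. With all values under 4 set to 4 the difference was -0.36 and the call was lost (adjusted p = 0.206, the highest of 18 alternatives, whose lowest was 0.000533). FABP1 was 7.05 log2 units lower in HUG1N control than in Caco-2 control cells (SE 0.26, limma adjusted p = 1.43e-06), or 6.98 lower with values under 4 set to 4. In that comparison 5 of the 6 measured genes were called, all lower in HUG1N, where 41.3% of all tested genes were called lower, 37.1% higher and 78.4% either way. Nothing is read from this count, since MTTP passed the filter only through Caco-2 and FABP1 mainly so. The count was 4 with any 1 array left out, where the DGAT1 call was lost.

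The RefSeq start of FABP1 is shown because the gene was measured on all Caco-2 arrays and on 1 of the HUG1N arrays, and a GATA match stands before it. The 250 bases before the start are given at chr2:88128063-88128312 of GRCh38.p14, minus strand, 5′ to 3′. Capitals mark AGATAA or TGATAA on either strand, here in the reverse form TTATCA, whose first base lies 133 bases before the start.
FABP1: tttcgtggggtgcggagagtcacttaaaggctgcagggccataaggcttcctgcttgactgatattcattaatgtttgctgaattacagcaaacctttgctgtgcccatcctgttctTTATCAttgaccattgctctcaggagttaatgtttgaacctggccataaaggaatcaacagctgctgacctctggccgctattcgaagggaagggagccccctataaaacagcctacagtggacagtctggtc
Of the 35116 starts in the table, 14.6% hold such a match in the 250 bases before them, and a match is a description of letters, not a binding site.

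FABP2, the intestinal-type binding protein of enterocytes, was not measured in any group. Its probe set 207475_at read 2.08 on all 8 arrays. The start of FABP2 is shown beside that of FABP1 because it too holds a match, AGATAA at 42 bases before the start, while its transcript stayed at the lowest value in both lines. It lies at chr4:119322139-119322388 of GRCh38.p14, minus strand.
FABP2: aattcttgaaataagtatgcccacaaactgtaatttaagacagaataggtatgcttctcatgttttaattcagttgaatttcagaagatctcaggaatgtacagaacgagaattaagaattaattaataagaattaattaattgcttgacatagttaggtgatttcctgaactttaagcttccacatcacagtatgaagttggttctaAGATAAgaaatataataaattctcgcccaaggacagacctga
FABP6, the ileal bile acid binding protein, read 2.31 and 2.08 in Caco-2 control arrays and 2.08 on the other arrays (probe set 210445_at). Its RefSeq start held no match. No fold can be given for either gene.

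FABP5, the epidermal-type binding protein, which many dividing epithelial cells express, fell in both lines, and more in Caco-2. It read 12.54 and 12.42 in Caco-2 control and 9.99 and 10.24 in Caco-2 shRNA arrays (probe set 202345_s_at). The change of -2.37 (SE 0.14, limma adjusted p = 0.000105) left 19.4% of the control level (95% interval 15.2 to 24.7%). The call held in all 19 alternatives, with differences between -2.49 and -2.25. In HUG1N it read 12.33 and 12.60 in control and 12.07 and 11.81 in shRNA arrays. That change of -0.52 (SE 0.14, limma adjusted p = 0.0247) left 69.5% (95% interval 54.6 to 88.6%).

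The HUG1N fall of FABP5 was the less firm. It was lost under 5 of 19 alternatives, among them without control replicate 2 (-0.39, adjusted p = 0.117) and without shRNA replicate 2 (-0.39, adjusted p = 0.113), over a range of 0.00989 to 0.117. The effect was 1.84 log2 units smaller in HUG1N than in Caco-2 (SE 0.20, limma adjusted p = 0.00114), in a test of the difference that called 44.9% of all genes, 22.2% with the HUG1N effect higher and 22.7% with it lower. That test called all 6 measured genes, 4 higher and 2 lower in HUG1N, FABP1 and SCARB1 being the lower. With any 1 of the 4 Caco-2 arrays left out 3 or 4 were called, 0 of them lower. The FABP1 difference turned to 0.11 with values under log2 4 set to 4, and that of MTTP sets a measured fall against unmeasured values. The control groups of the lines differed by -0.02 (SE 0.14, 95% interval -0.37 to 0.33, limma adjusted p = 0.923), a difference whose sign turned under 4 of 19 alternatives, median centring included (0.12). The order of the levels was thus both control groups, which did not differ beyond their spread, then HUG1N shRNA, then Caco-2 shRNA. The annotation lists 15 loci named as FABP5 pseudogenes, and a probe set shared with such copies would read them too, so the value is uncertain as to the locus.

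SLC27A2, a fatty acid transport protein of the endoplasmic reticulum and peroxisomes that also activates very long chain fatty acids, was higher in Caco-2 than in HUG1N, and rose with the shRNA in HUG1N. Its brighter probe set, 205768_s_at, read 7.16 and 7.07 in HUG1N control and 7.86 and 7.60 in HUG1N shRNA arrays. The rise of 0.62 (SE 0.12, limma adjusted p = 0.00767) held in all 19 alternatives, with differences from 0.49 to 0.90. In Caco-2 it read 10.97 and 10.90 in control and 10.88 and 10.62 in shRNA arrays, a difference of -0.19 (SE 0.12, 95% interval -0.48 to 0.11) that was not called (limma adjusted p = 0.282). The difference was thus negative in Caco-2, where it was not called, and positive in HUG1N.

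Both measured probe sets of SLC27A2 pointed the same way. In a fit of 12758 probe sets, which called 35.1% of them in Caco-2, 46.6% in HUG1N and 76% between the control groups, the probe set 205769_at rose by 1.18 in HUG1N (SE 0.21, limma adjusted p = 0.00591), a larger change than that of its partner. It read 6.81 and 6.11 in control against 7.67 and 7.62 in shRNA arrays. In Caco-2 its difference was -0.26 (SE 0.21, limma adjusted p = 0.393). The lines' effects on SLC27A2 differed by 0.80 by the brighter probe set (SE 0.17, limma adjusted p = 0.0118) and by 1.45 by the other (SE 0.30, limma adjusted p = 0.0115). HUG1N control cells held 7.05% of the Caco-2 control level (95% interval 5.74 to 8.67%, limma adjusted p = 7.51e-07).

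The start of SLC27A2 is printed as that of the only gene of the 9 that rose with the shRNA by the limma test in a line. It lies at chr15:50181946-50182195 of GRCh38.p14, plus strand, and holds no AGATAA or TGATAA on either strand. Whether a match goes with the direction of change was not tested.
SLC27A2: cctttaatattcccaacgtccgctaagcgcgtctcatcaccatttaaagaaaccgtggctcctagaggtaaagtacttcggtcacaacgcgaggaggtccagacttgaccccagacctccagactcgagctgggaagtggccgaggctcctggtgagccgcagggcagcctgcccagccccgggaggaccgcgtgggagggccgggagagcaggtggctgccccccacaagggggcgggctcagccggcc

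CD36, a scavenger receptor and fatty acid translocase of the enterocyte brush border, of macrophages, of adipocytes and of small-vessel endothelium, was at the lowest value of 2.08 by all 3 of its probe sets on all 8 arrays. Of 7 macrophage markers on the array, CD14 alone exceeded log2 4, in Caco-2 control arrays. Of 6 adipocyte markers CIDEC alone did, and of 5 endothelial markers PECAM1 alone did. The macrophage list averaged 2.41 to 2.51 on Caco-2 control arrays, 2.15 to 2.35 on Caco-2 shRNA arrays and 2.08 on the HUG1N arrays. CD36 has 6 RefSeq starts in the table, of which 2 hold a GATA match, where 14.6% of all starts do. The windows of these 2 starts overlap and share the match TTATCA.

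SCARB1, the receptor for high density lipoprotein that takes up cholesteryl esters, was measured on all 8 arrays. By its probe set 201819_at it read 7.10 and 7.16 in Caco-2 control and 7.27 and 7.29 in Caco-2 shRNA arrays, a difference of 0.15 (SE 0.11, 95% interval -0.12 to 0.41, limma adjusted p = 0.335). In HUG1N it read 4.92 and 5.16 in control and 4.55 and 4.74 in shRNA arrays. The change of -0.40 there (SE 0.11, limma adjusted p = 0.0241) left 76.0% of the control level (95% interval 63.4 to 91.1%). That call was lost under 7 of 18 alternatives, quantile normalization (adjusted p = 0.0565) among them. Dropping HUG1N control replicate 2 gave 0.102 and dropping HUG1N shRNA replicate 1 gave 0.107 as adjusted p, in a range of 0.0177 to 0.107.

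The SCARB1 difference was positive in Caco-2, where it was not called, and negative in HUG1N. The lines' effects differed by -0.54 (SE 0.15, limma adjusted p = 0.0296), a call that was lost under 10 of 17 alternatives, whose adjusted p ran from 0.0199 to 0.0889. HUG1N control cells held 23.4% of the Caco-2 control level (95% interval 19.5 to 28.1%, limma adjusted p = 5.46e-06). The other probe sets of SCARB1, 215834_x_at and 215835_at, read 2.53 to 2.62 and 2.08 on the 8 arrays and gave no measurement.

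DGAT1, which catalyses the last step of triglyceride synthesis, fell in both lines, and more in Caco-2. It read 10.68 and 10.75 in Caco-2 control and 9.40 and 9.42 in Caco-2 shRNA arrays (probe set 203669_s_at). That is a change of -1.31 (SE 0.07), with 40.4% of the transcript left (95% interval 36.0 to 45.3%, limma adjusted p = 5.45e-05). In HUG1N it read 10.51 and 10.57 in control and 10.10 and 10.17 in shRNA arrays, a change of -0.40 (SE 0.07) with 75.7% left (95% interval 67.5 to 84.8%, limma adjusted p = 0.00404). Both calls held in all 19 alternatives. The SDs of the groups ran from 0.01 to 0.05.

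The effect on DGAT1 was 0.91 log2 units smaller in HUG1N (SE 0.10, limma adjusted p = 0.000973), a difference called in all 18 alternatives. The lines' control groups lay close together, with HUG1N 0.18 lower (SE 0.07, limma adjusted p = 0.0492). That call was lost under 14 of 19 alternatives, among them the removal of any 1 of the 8 arrays, with an adjusted p of up to 0.627 under median centring. Centring moved every difference between the control groups by 0.13 log2 units.

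MTTP, the transfer protein that lipidates apolipoprotein B, was measured in Caco-2 and in 0 of the HUG1N arrays. It read 8.20 and 7.93 in Caco-2 control arrays and 6.73 and 5.20 in Caco-2 shRNA arrays (probe set 205675_at). The shRNA arrays had a wide spread between them (SD 1.08). Its change with the shRNA was -2.10 (SE 0.45), or 23.3% of the Caco-2 control value (limma adjusted p = 0.0128, 95% interval 11.0 to 49.5%). It was -2.87 without shRNA replicate 1 and -1.33 without shRNA replicate 2. Either fit leaves 1 shRNA array, so the spread between the shRNA arrays drops out of it.

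Removal of control replicate 1 (-1.96) or 2 (-2.24) ended the MTTP call, as did testing every gene unfiltered (adjusted p = 0.0601) and fitting Caco-2 alone (adjusted p = 0.0559). The SDs of 0.19 and 1.08 in Caco-2 are pooled with SDs of 0 in HUG1N, where values lay at the floor, so the SE of 0.45 understates the Caco-2 spread. In HUG1N MTTP read 2.08 on both control and 2.37 on both shRNA arrays, so no change can be given there. The test of the difference between the lines (2.39, SE 0.63, limma adjusted p = 0.0240) compares a measured fall with unmeasured values. Its call was lost under 7 of 18 alternatives, with an adjusted p of up to 0.0920. Caco-2 control cells held at least 16.7-fold more MTTP transcript than HUG1N control cells, whose bound is log2 4.

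MTTP has 2 RefSeq starts on chromosome 4, both plus strand and both on GRCh38.p14, and they are shown because they differ in the motif. The upstream window, at chr4:99563880-99564129, holds no match, and the downstream window, at chr4:99574574-99574823, holds AGATAA at 36 bases before its start. The probe set does not tell the starts apart.
MTTP, upstream start: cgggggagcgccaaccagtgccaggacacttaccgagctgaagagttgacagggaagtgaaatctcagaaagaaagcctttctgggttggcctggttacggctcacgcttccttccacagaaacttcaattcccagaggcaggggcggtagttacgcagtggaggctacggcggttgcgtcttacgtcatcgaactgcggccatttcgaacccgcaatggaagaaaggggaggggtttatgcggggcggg
MTTP, downstream start: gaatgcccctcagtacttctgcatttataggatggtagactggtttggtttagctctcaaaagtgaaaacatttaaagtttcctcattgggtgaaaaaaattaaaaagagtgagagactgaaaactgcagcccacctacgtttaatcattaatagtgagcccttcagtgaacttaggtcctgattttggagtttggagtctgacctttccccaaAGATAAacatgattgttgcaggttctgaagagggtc
Of the 9 genes, 6 had an entry in the table, with 12 starts in all. A match stood before 5 of these starts, beside 14.6% of all starts in the table. Overlapping windows of CD36 hold 2 of the 5 and share a match. FABP5, DGAT1 and SCARB1 had no entry, so their starts were not searched.

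**Figure D2:**
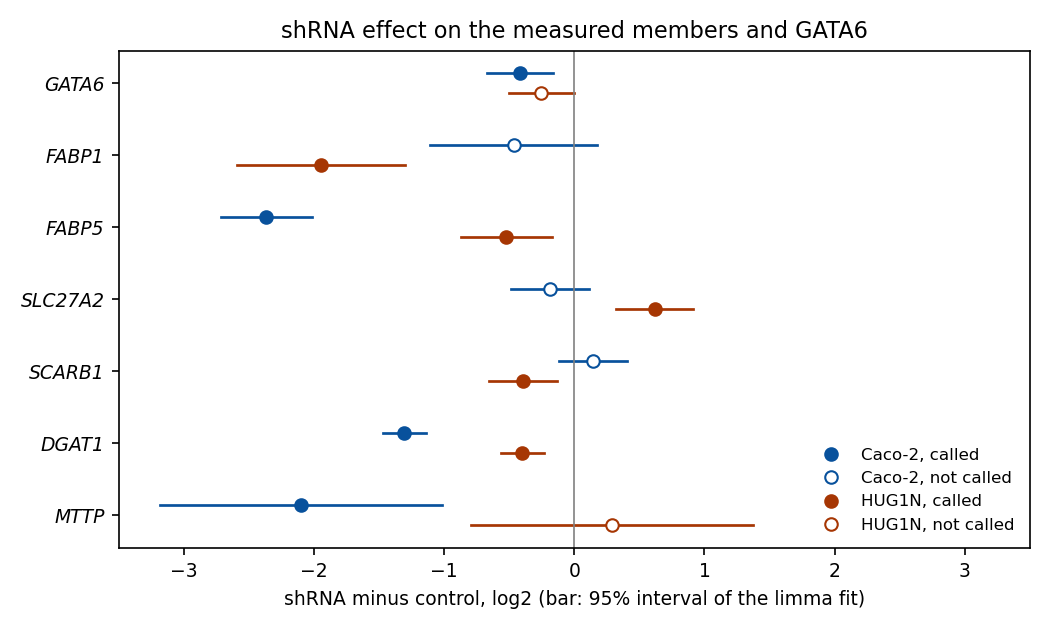
Difference between shRNA and control arrays, in log2 units, for GATA6 and the 6 measured genes in each line, with the 95% interval of the limma fit. Filled points are called and open points are not. FABP5, DGAT1 and MTTP lie far to the left in Caco-2 and SLC27A2 to the right in HUG1N; FABP1 and MTTP have wide intervals and are below or near the limit of measurement in HUG1N.

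The 6 measured genes did not follow a common pattern over the 4 groups. Against Caco-2 control, HUG1N control cells were lower in FABP1, SLC27A2, SCARB1 and MTTP, while DGAT1 (-0.18) and FABP5 (-0.02) lay close together. Of all tested genes 41.3% were called lower in HUG1N control cells. MTTP passed the filter only through Caco-2 and FABP1 mainly so, so nothing is read from the number that were lower. For each gene the closest tested transcripts over the 8 arrays were found by the root mean square difference of log2 values, each centred on its own mean. FABP1 was closest to the trypsin inhibitor SPINK1 (0.25) and the retinol carrier RBP4 (0.50). MTTP was closest to TMT1A (0.29) and FOCAD (0.41), and FABP5 to ARHGEF40 (0.21) and carbonic anhydrase CA2 (0.22). For DGAT1 the closest were HELLS, a chromatin remodeller (0.12), and MARCKSL1 (0.12), for SCARB1 glutaredoxin GLRX (0.07) and RCHY1 (0.08), and for SLC27A2 the mitochondrial deacetylase SIRT3 (0.09) and HDGFL3 (0.14). Likeness was taken over only 4 groups of 2 arrays. For MTTP and FABP1 it rests in part on values below measurement. MTTP exceeded log2 4 on 0 HUG1N arrays, and FABP1 on 1 HUG1N control array and 0 HUG1N shRNA arrays.

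The wider lipid pathway was described by a list of 114 genes in 10 roles, of which 86 were on the array and 70 were tested. In Caco-2, 22 of the 70 fell and 7 rose by the limma test, that is 31.4% and 10%, where 19.2% and 19.5% of all tested genes did. The median difference of the list was -0.13, beside 0.00 over all genes. In HUG1N, 21 fell and 17 rose, that is 30% and 24.3% beside 23.9% and 24.7% of all genes, and the median was 0.02. Some of the 70 passed the filter only through 1 line. With the Caco-2 groups fitted alone, 67 were tested, of which 23 fell and 10 rose. In that fit 1459 of all 7287 tested genes fell and 1420 rose. With those of HUG1N alone, 60 were tested, of which 19 fell and 12 rose, beside 1593 and 1586 of all 7200 tested genes. Without Caco-2 control replicate 1 or 2 the Caco-2 count dropped from 29 to 18 and 19, and that of all genes from 2982 to 1922 and 1834. The list was described by its counts and was not tested as a set.

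Among other genes of fatty acid binding and uptake, 3 of 6 tested were called in Caco-2, all lower, and 2 in HUG1N, both higher. Over all tested genes, 19.2% were called lower in Caco-2 and 24.7% higher in HUG1N. Caveolin CAV1, a coat protein of membrane pits, changed by -0.97 (SE 0.10, adjusted p = 0.00079) in Caco-2 and by 0.90 (SE 0.10, adjusted p = 0.000834) in HUG1N. GOT2, the mitochondrial aspartate aminotransferase, changed by -0.45 in Caco-2 and the transporter SLC27A3 by 0.84 in HUG1N. Of 4 tested acyl-CoA synthetase genes, ACSL5 alone was called in Caco-2, at -1.21 (SE 0.16, adjusted p = 0.00215), and ACSM3 alone in HUG1N, at 1.04 (SE 0.25, adjusted p = 0.0152). ACSM3 was not measured in Caco-2, at 2.60 in control and 3.02 in shRNA cells, and ACSL1 differed by -0.50 in HUG1N, which was not called (adjusted p = 0.140).

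Among the enzymes that precede DGAT1 on the way to triglyceride, 2 of 5 tested fell and 2 rose in Caco-2, and 3 fell and 1 rose in HUG1N. The acyltransferase AGPAT2 changed by -0.83 (SE 0.10) in Caco-2 and -0.84 (SE 0.10) in HUG1N, with adjusted p of 0.00132 and 0.000999. LPIN1, a phosphatidate phosphatase, changed by -0.97 (SE 0.20) in Caco-2. AGPAT5 rose by 0.49 (SE 0.07) in HUG1N. Among lipid droplet and lipolysis genes, 2 of 10 fell and 2 rose in Caco-2, and 5 fell and 2 rose in HUG1N. Beside the counts of both roles, 19.2% of all tested genes were called lower and 19.5% higher in Caco-2. In HUG1N these shares were 23.9% and 24.7%. The monoglyceride lipase MGLL rose from 7.19 to 8.90 in Caco-2 (adjusted p = 0.000105), and PNPLA3, a lipid droplet hydrolase, fell from 5.09 to below measurement, at least 2.12-fold. In HUG1N the hypoxia-inducible lipid droplet gene HILPDA fell from 11.52 to 9.11 (adjusted p = 6.59e-05), and the droplet coat protein PLIN3 from 10.76 to 10.02.

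In particle assembly, APOB and APOC3 were measured in Caco-2 and not in HUG1N, where APOB averaged 2.15 and APOC3 2.25 in control cells. Of 9 tested genes, limma called APOB and APOC3 in Caco-2, both lower, while in HUG1N 3 fell and 1 rose. Lower calls made up 19.2% of all tested genes in Caco-2 and 23.9% in HUG1N. APOB, the structural protein that MTTP lipidates, changed from 13.60 to 12.90 (SE 0.10, adjusted p = 0.00330), and APOC3, an inhibitor of lipoprotein clearance, from 13.57 to 12.07 (SE 0.16, adjusted p = 0.000869). The genes that fell in HUG1N included VAMP7, a SNARE protein of chylomicron transport vesicles, at -1.12 (SE 0.09), and the vesicle coat gene SEC24C, at -0.66 (SE 0.07).

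In sterol handling, 2 of 5 tested genes fell and 1 rose in Caco-2, and 1 fell and 1 rose in HUG1N. Calls over all tested genes were 38.7% in Caco-2 and 48.7% in HUG1N. ABCA1, SOAT2 and PDZK1 lay below measurement in HUG1N and passed the filter only through Caco-2. SOAT2, the acyltransferase that esterifies cholesterol in enterocytes, fell from 7.89 and 8.12 on control arrays to 5.14 and 4.29 on shRNA arrays in Caco-2 (SE 0.26, adjusted p = 0.000295), and the cholesterol exporter of lysosomes NPC1 rose from 9.29 to 9.85. NPC1 fell by 0.30 in HUG1N (adjusted p = 0.0194). PDZK1, an adaptor that binds SCARB1, was called higher in HUG1N but went only from 2.08 to 3.24, below measurement. Of 3 tested genes of ileal bile acid handling, 2 fell and 1 rose in Caco-2, with the nuclear receptor NR0B2 at -1.64 (SE 0.21; 1 of 2 shRNA arrays over log2 4) and the exporter ABCC3 at 0.82 (SE 0.07). In HUG1N limma called 0 of the 3 and gave 0 an unadjusted p under 0.05, with ABCC3 at 0.14 (adjusted p = 0.126) and ABCC2 not measured.

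Of 14 tested genes of fatty acid oxidation, 6 were called in Caco-2, all lower, where 19.2% of all genes were called lower. In HUG1N 2 fell and 6 rose, where 23.9% of all genes were called lower and 24.7% higher. The test of the difference between the lines called 9 of the 14, and in 8 of these the HUG1N effect was the higher, where 44.9% of all genes were called and 22.2% were higher. HADHA, the alpha subunit of the trifunctional protein, changed by -0.42 (SE 0.08) in Caco-2, and the acyl-CoA dehydrogenase ACADM by -0.69 (SE 0.13). In HUG1N the peroxisomal thiolase ACAA1 rose by 0.59 (SE 0.06) and ACADVL, which starts oxidation of long chains, fell by 0.99 (SE 0.08).

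Of 7 tested fatty acid synthesis and desaturation genes, 2 were called in Caco-2, both lower, and 4 fell and 2 rose in HUG1N. For all tested genes the shares called were 38.7% in Caco-2 and 48.7% in HUG1N. The desaturase SCD changed by -0.61 (SE 0.14, adjusted p = 0.0187) in Caco-2 and by -1.43 (SE 0.14, adjusted p = 0.000618) in HUG1N. The carboxylase ACACB fell by 1.68 (SE 0.21) in Caco-2, and ACLY, which makes cytosolic acetyl-CoA, by 0.38 (SE 0.07) in HUG1N. Of 7 tested regulators 1 was called in Caco-2, higher, and 3 fell and 1 rose in HUG1N. The oxysterol receptor NR1H3 changed by 0.48 (SE 0.10, adjusted p = 0.0110) in Caco-2 and by -0.71 (SE 0.10, adjusted p = 0.00188) in HUG1N, and the retinoid X receptor RXRA rose by 0.75 (SE 0.12) in HUG1N. The glucose-responsive factor MLXIPL differed by -0.87 in Caco-2, which was not called (adjusted p = 0.0703). In HUG1N MLXIPL changed by -1.18 and was called lower by limma (adjusted p = 0.0213). These are whole-culture measurements, in which fewer cells of a kind and less RNA per cell cannot be told apart.

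**Figure D3:**
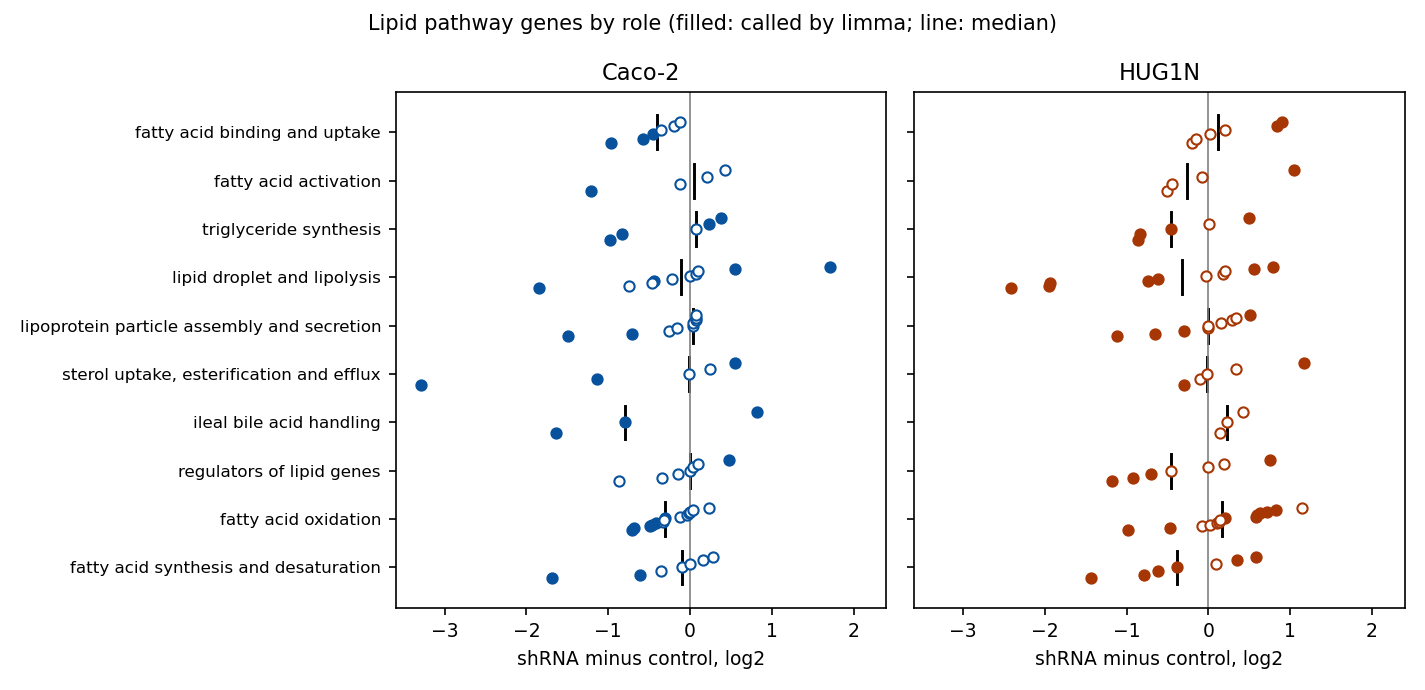
Difference between shRNA and control, in log2 units, of the 70 tested lipid pathway genes by role, in Caco-2 and HUG1N. Each point is a gene, filled where limma called it, and the vertical line is the median of the role. Fatty acid oxidation has 6 called genes in Caco-2, all lower, but 6 called rises and 2 called falls in HUG1N.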

How the data were processed

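Total RNA of 8 samples was measured on Affymetrix 3′ expression arrays. The deposited values are log2 expression per probe set, which the authors made with GCRMA per the submitters' processing notes. That method removes background estimated from each probe's sequence, normalizes between arrays and combines probes; which version and settings were used is not stated. Low genes share the lowest value. A fold against a group with 0 arrays over log2 4 is a bound against 4.

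The array's 22277 probe sets comprise 19070 with a single gene symbol, 1043 with several, and 2164 unnamed here. Entrez identifiers of 19058 gave current symbols from a GRCh38.p14 table. The brightest probe set stood for each gene. Tests used limma 3.58.1 in R 4.3.3 on all 7696 genes over log2 4 on at least 2 arrays, with the 4 group means, 1 pooled spread (4 residual degrees of freedom) and Benjamini-Hochberg adjustment. The fit was tested on simulated data. Alternatives covered the filter, normalization, variance model, own groups only, probe set choice, a floor at log2 4, the replicate number as a block and each array left out. Named genes were the 9 genes, GATA6, up to 2 genes with the smallest p per role and line, and the 2 closest profiles per called gene. The members, lists and rules were chosen with earlier results of these data known. Promoter sequences are those of RefSeq on GRCh38.p14. Precision is limited by there being 2 arrays a group.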

Additional observations from a re-analysis of the deposited data

Results flagged for a closer look

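For all 6 measured genes the shRNA effect was called different between the lines in the limma test of the difference itself, given as the HUG1N effect minus the Caco-2 effect, a test that called 44.9% of all tested genes. FABP5 (1.84, SE 0.20, adjusted p = 0.00114) and DGAT1 (0.91, SE 0.10, adjusted p = 0.000973) fell in both lines and less in HUG1N. SLC27A2 (0.80, SE 0.17, adjusted p = 0.0118) and SCARB1 (-0.54, SE 0.15, adjusted p = 0.0296) had differences of opposite sign in the lines, each called in HUG1N and not in Caco-2. For FABP1 (-1.48, SE 0.37, adjusted p = 0.0207) 1 of the 4 HUG1N arrays exceeded log2 4, and for MTTP (2.39, SE 0.63, adjusted p = 0.0240) 0 did. The FABP1 difference turned to 0.11 (adjusted p = 0.779) with values under log2 4 set to 4 and lost its call in 7 more of 18 alternatives. The call was lost in 10 of 17 alternatives for SCARB1 and in 7 of 18 for MTTP. Without Caco-2 control replicate 1 or 2 the number of these 6 differences that were called was 3.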

How the results depend on the processing

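The Caco-2 count of called genes among the 9 stayed at 2 to 4 over 19 alternatives (3 as reported). The HUG1N count of 5 was 3 with no filter and 2 with the line's own groups only, which tested 4 of the genes, and ran from 3 to 5 over the arrays left out. The count of 6 differences between the lines was 3 with no filter and ran from 3 to 5 over the arrays left out. The Caco-2 count of lipid pathway genes, 29, ran from 18 to 29 over the arrays left out, and the HUG1N count of 38 from 26 to 37. The difference between the lines in FABP1 turned to 0.11 with values under log2 4 set to 4 (adjusted p = 0.779). The FABP5 difference between the control groups, -0.02, turned to 0.12 with median centring and 0.015 with the replicate block, and ran from -0.15 to 0.11 over the arrays left out. The causes of these changes were not tested, beside the smaller number of genes or arrays that an alternative leaves. With no filter, limma called 3238 of all 11963 genes in HUG1N and 2872 for the difference between the lines. With the line's own groups only, it called 3179 of all 7200 tested genes in HUG1N.

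The replicate numbers are shared between groups in the labels, but nothing says that they pair the arrays, and deviations of equally numbered arrays correlated at r of 0.07 in Caco-2 and -0.02 in HUG1N across genes. With the replicate block the counts among the 9 genes were 3 in Caco-2, 4 in HUG1N, 5 for the difference between the lines and 4 between the control groups, and the fall of FABP5 in HUG1N was not called (adjusted p = 0.0743). The fit of own groups only does not apply to the difference between the lines. Signal near the lowest value limits FABP1 and MTTP in HUG1N and all of FABP2, FABP6 and CD36.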

Other observations

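Outside the 9 genes, 14 of the 70 tested lipid pathway genes (20.0%) were called in both lines by limma, and 8 of these (11.4% of the 70) moved in opposite directions. Over all 7696 tested genes, 1576 (20.5%) were called in both lines and 562 (7.30%) in opposite directions. ACADM, CAV1, ETFDH and LIPA fell in Caco-2 and rose in HUG1N, while HILPDA, MGLL, NPC1 and NR1H3 rose in Caco-2 and fell in HUG1N. LIPA, ETFDH, the Caco-2 values of HILPDA and the HUG1N values of MGLL, LPIN1 and MLXIPL lie outside the naming rule and were chosen after their values were seen. LIPA, the lysosomal acid lipase, changed by -0.44 in Caco-2 and 0.79 in HUG1N (difference 1.23, SE 0.11, adjusted p = 0.000499), and MGLL by 1.71 and -0.62 (difference -2.33, SE 0.15, adjusted p = 0.000158). HILPDA changed by 0.54 and -2.41 (difference -2.96, SE 0.17, adjusted p = 0.000119).

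AGPAT2, LPIN1, HADHA, SCD and ACACB fell in both lines and AGPAT5 rose in both. The phosphatidate phosphatase LPIN1 changed by -0.97 in Caco-2 and -0.87 in HUG1N, and the difference between these effects was 0.11 (SE 0.28, adjusted p = 0.773). The HUG1N shRNA arrays had the widest ACTB gap, 3.73 against 2.51 in their controls, and its part in these differences was not tested.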
